A study of Mus musculus with 4 samples.

Results

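Srebf1, the gene for the transcription factors SREBP-1a and SREBP-1c, was followed with its promoter isoforms in mouse small-intestinal organoids given the liver X receptor (LXR) agonist GW3965. It is 1 of 30284 genes, with 12 annotated transcripts among the 88198 in the files, and each of its transcripts was taken by annotation. The gene was chosen by measured values, namely its response to GW3965 in these same libraries, so its levels, isoforms and shares are described here and carry no test.

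Organoids are epithelial cultures grown in a gel from intestinal crypts. Crypts of 2 male C57BL/6J mice were used, and each mouse gave 1 culture with the vehicle DMSO and 1 with 2 µM GW3965. Both treatments lasted 6 h and each group has 2 libraries. No transgene or gene deletion is named for any of them. An age of 9 weeks is given under a tag that counts from a DSS day, although no such treatment is described. Bulk RNA was poly-A selected, made into stranded libraries and read as single 50-base reads. The 4 libraries held 16572359 to 19486547 estimated counts.

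Colon is the tissue named under RNA extraction, whereas the tissue label and growth protocol name the small intestine. The 6 small-intestine markers summed to 6022 to 7720 normalised CPM (counts scaled to the size of each library) and the 4 colon markers to 29.6 to 41.1. The 6 epithelium markers summed to 23070 and 24540 CPM with DMSO and to 17240 and 25900 CPM with GW3965, in mouse 1 and mouse 2. The 6 leukocyte markers summed to 318 and 344 CPM with DMSO and to 281 and 343 CPM with GW3965, mostly from Cd74. The leukocyte gene Ptprc stood at 10.7 and 12.7 CPM with DMSO and at 21.9 and 11.5 CPM with GW3965, and Cd3e and Cd3g were likewise highest in the GW3965 library of mouse 1, at 8.467 and 10.96 CPM. The 6 markers of mesenchyme and endothelium summed to 30.9 and 34.8 CPM with DMSO and to 43.7 and 37.6 CPM with GW3965. In bulk RNA, fewer cells of a type and less RNA per cell cannot be told apart. The GW3965 library of mouse 1 stood apart in the share of counts from mitochondrial genes, at 14.0% against 7.60 to 9.43% in the other 3 libraries. It also had the lowest sum of epithelium markers and the highest share of counts in non-coding transcripts of protein-coding genes, at 5.84% against 4.23 to 4.72%. The part of these differences in the results was not tested.

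SREBPs are made as membrane-bound precursors that SCAP escorts from the endoplasmic reticulum to the Golgi, where proteases release the part that enters the nucleus. Srebf1 has alternative promoters with separate first exons, and SREBP-1a, from the 1a promoter, has a longer and more potent activation domain than SREBP-1c. The 1c promoter is a known direct target of LXR acting with its partner RXR, which bind paired AGGTCA-like half-sites spaced by 4 bases (a DR4 element), and SREBP-1c is best known as an activator of fatty acid synthesis.

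Srebf1 lies on the minus strand of chromosome 11, at chr11:60199089-60222581 of GRCm38 (ENSMUSG00000020538). The annotation (GENCODE) and RefSeq place 3 promoter starts in it. The most upstream start belongs to Srebf1-204, a non-coding transcript of 2 exons. The 1a start lies 1977 bases further on and belongs to Srebf1-201, a complete protein-coding transcript of 4299 bases with a first exon of 152 bases. The 1c start lies 10139 bases downstream of the 1a start and belongs to the protein-coding Srebf1-207, 3177 bases long with a first exon of 130 bases, and to the short non-coding Srebf1-208. The 250 bases before each RefSeq start (RefSeq, GRCm38.p6, minus strand, 5′ to 3′) are shown because the promoters are what separates the isoforms. Capitals mark exact matches to CCAAT or GGGCGG on either strand and, in the 1c window, the closest match to the DR4 letters.

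Upstream start, chr11:60222582-60222831: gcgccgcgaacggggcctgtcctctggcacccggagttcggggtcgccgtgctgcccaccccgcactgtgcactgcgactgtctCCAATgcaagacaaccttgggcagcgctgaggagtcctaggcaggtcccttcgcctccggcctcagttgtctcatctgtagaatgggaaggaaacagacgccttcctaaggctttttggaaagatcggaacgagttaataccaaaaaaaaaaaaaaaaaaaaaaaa
1a start, chr11:60220628-60220877: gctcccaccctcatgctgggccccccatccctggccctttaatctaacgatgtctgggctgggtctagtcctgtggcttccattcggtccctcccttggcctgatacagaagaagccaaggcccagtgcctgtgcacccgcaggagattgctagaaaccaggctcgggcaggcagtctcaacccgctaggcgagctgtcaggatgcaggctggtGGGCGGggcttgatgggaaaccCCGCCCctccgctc
1c start, chr11:60210472-60210721: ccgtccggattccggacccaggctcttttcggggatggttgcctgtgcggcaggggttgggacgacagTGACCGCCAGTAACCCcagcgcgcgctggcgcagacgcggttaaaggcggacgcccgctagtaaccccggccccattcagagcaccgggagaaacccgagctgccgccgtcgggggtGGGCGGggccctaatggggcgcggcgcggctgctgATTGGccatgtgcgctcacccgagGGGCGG

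The 3 windows differ in base composition and in these letters. GC content was 54.4% before the upstream start, 63.2% before the 1a start and 70.8% before the 1c start, against a median of 52.4% over 32851 RefSeq promoter windows. Each window was searched on both strands from 250 bases before to 50 after the start for the DR4 letters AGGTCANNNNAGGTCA with up to 3 mismatches. The 1c window held 1 match, read GGGTTACTGGCGGTCA on the other strand, with 3 mismatches, at bases -182 to -167 from the start (chr11:60210638-60210653). The closest sites in the 1a and upstream windows had 4 mismatches. A match this loose is common, since 21.9% of all promoter windows hold one, and 3.02% hold one with up to 2 mismatches. The sequence GTAACCC, which ends the match as printed, occurs again in the 1c window at bases -122 to -116 and in neither other window. These 7 letters were picked after the sequence was seen.

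The other motifs searched were shared among the starts or missing from these letters. A CCAAT box, the sequence bound by NF-Y, was found once before the upstream start and once before the 1c start (bases -30 to -26, as ATTGG). It occurs in 37.4% of all windows. The Sp1 GC box GGGCGG was found 2 times before the 1c start, at bases -65 to -60 and -6 to -1, and 3 times around the 1a start, at -36 to -31, -14 to -9 and 8 to 13. It occurs in 35.7% of windows. No window held the sterol regulatory element TCACNCCAC with up to 1 mismatch (24.2% of all windows do) or the E-box CACGTG (7.15% do). The CCAAT box and the nearer GC boxes do not overlap the DR4 match. These are letters only, with no binding measured.

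**Figure D1:**
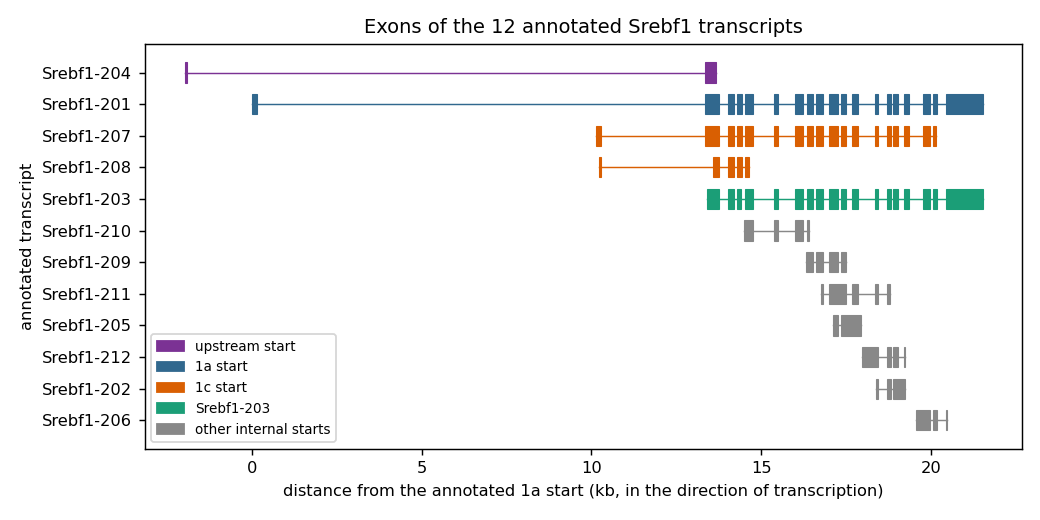
Exons (boxes) and introns (lines) of the 12 annotated Srebf1 transcripts, with distance in kb from the annotated 1a start on the x axis and 1 transcript per line, coloured by start. Srebf1-201 (1a) and Srebf1-207 (1c) have separate first exons and then share exons, while only Srebf1-201 and Srebf1-203 reach the end of the gene.

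What separates the isoforms in these data is a short stretch of sequence. Of the 4269 overlapping 31-base words of Srebf1-201, 148 (3.47%) occur in no other Srebf1 transcript, and Srebf1-207 has 98 of its own among 3147 (3.11%). The annotated Srebf1-207 is incomplete and stops 1100 exon bases before the end of the gene. Those bases are carried by Srebf1-201 and by Srebf1-203, an incomplete protein-coding transcript whose start lies inside the exons shared by 1a and 1c, with 25 words of its own, and in small part by Srebf1-206. Any 1c mRNA that runs to the end of the gene could therefore place its last reads only on those other transcripts, so the split between Srebf1-207, Srebf1-201 and Srebf1-203 is kallisto's estimate and the gene total is firmer than its parts. Against other genes the ambiguity is small, since 79 of the 5723 words of Srebf1 (1.38%) are shared, all with Rai1, whose end overlaps the end of Srebf1 on the opposite strand.

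Srebf1 was higher with GW3965 in both mice. Its estimated counts were 1421 with DMSO and 6534 with GW3965 in mouse 1, and 1478 and 9091 in mouse 2. As normalised CPM these were 73.0 and 398 in mouse 1 and 78.4 and 476.9 in mouse 2. Both DMSO libraries lay close together, both GW3965 libraries were far above them, and the groups did not overlap. The mean was 75.7 ± 3.81 CPM (SD, n = 2) with DMSO and 437.5 ± 55.8 CPM (SD, n = 2) with GW3965, a ratio of 5.78, with 5.45 in mouse 1 and 6.09 in mouse 2.

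Per length, the whole gene held 48.3 and 52.0 TPM (a share of all transcripts, corrected for length) with DMSO and 251.6 and 292.7 TPM with GW3965. Short non-coding transcripts weigh heavily in these sums and in the ranks below. The protein-coding transcripts alone held 18.5 and 17.8 TPM with DMSO and 84.2 and 128.8 TPM with GW3965, in mouse 1 and mouse 2. By the TPM of the whole gene, Srebf1 ranked 2502 of 18250 genes above 0 in the DMSO library of mouse 1. In that of mouse 2 it ranked 2227 of 18398. With GW3965 it ranked 485 of 18524 and 471 of 18331. Srebf2, the paralog that makes SREBP-2, stood at 63.4 and 64.4 TPM with DMSO and 35.8 and 62.9 TPM with GW3965. Srebf1 was thus below Srebf2 in both DMSO libraries and above it in both GW3965 libraries.

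The authors' deposited table of log2 CPM puts the difference for Srebf1 lower in mouse 1. In the authors' deposited table it stood at 6.79 with DMSO and 8.23 with GW3965 in mouse 1, and at 6.12 and 8.74 in mouse 2. The log2 differences in the authors' deposited table were thus 1.45 in mouse 1 and 2.62 in mouse 2. The estimated counts gave log2 differences of 2.45 and 2.60. The direction was the same in both sources, and no source used here states how the authors scaled their values.

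Srebf1-201, the 1a transcript and the source of SREBP-1a, was the most abundant isoform by estimated counts in every library. It held 1002 estimated counts with DMSO and 2852 with GW3965 in mouse 1, and 1018 and 4315 in mouse 2. In CPM it stood at 51.5 and 54.0 with DMSO and at 173.7 and 226.3 with GW3965, with no overlap between the groups. The mean was 52.7 ± 1.77 CPM (SD, n = 2) with DMSO and 200.0 ± 37.2 CPM (SD, n = 2) with GW3965, a ratio of 3.80 (3.38 in mouse 1 and 4.20 in mouse 2). As estimated, the 1a transcript was higher with the agonist in level while, as given below, it was lower in share. Reads from the end of 1c mRNA could count toward this level, and their part in it was not tested.

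Srebf1-207, the 1c transcript and the source of SREBP-1c, had the larger ratio in both mice. Its estimated counts were 265.3 with DMSO and 1860 with GW3965 in mouse 1, and 197.3 and 3061 in mouse 2. In CPM it stood at 13.6 and 10.5 with DMSO and at 113.3 and 160.6 with GW3965. The mouse with the lower DMSO value had the higher GW3965 value, and the groups did not overlap. The mean was 12.1 ± 2.24 CPM (SD, n = 2) with DMSO and 136.9 ± 33.4 CPM (SD, n = 2) with GW3965, a ratio of 11.4. The ratio was 8.32 in mouse 1 and 15.4 in mouse 2. The other annotated 1c transcript, Srebf1-208, was listed at 0 in all 4 libraries.

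**Figure D2:**
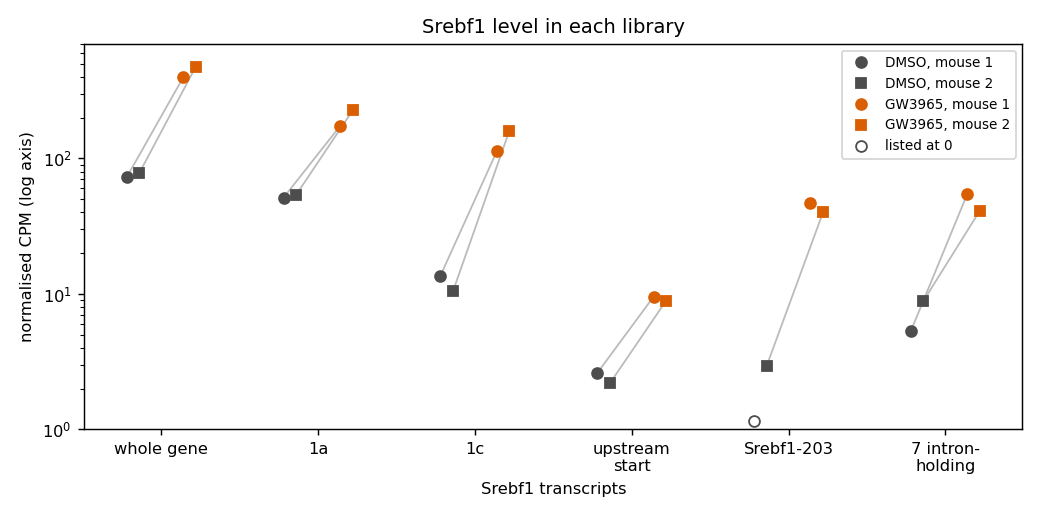
Normalised CPM (log axis) of Srebf1 and its transcript classes in each library, with lines joining the DMSO and GW3965 cultures of 1 mouse and an open marker for a value listed at 0. Every class is higher with GW3965 in both mice, from 13.6 to 113.3 and 10.5 to 160.6 CPM for 1c and from 51.5 to 173.7 and 54.0 to 226.3 CPM for 1a.

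On the per-length scale the isoforms went from unequal to nearly equal. With DMSO the 1a transcript stood at 13.5 TPM in mouse 1 and 13.4 TPM in mouse 2, and the 1c transcript at 4.93 and 3.58 TPM. With GW3965 the 1a transcript stood at 38.6 and 59.6 TPM and the 1c transcript at 34.6 and 58.1 TPM. The TPM ratio of 1c to 1a was 0.364 and 0.267 with DMSO and 0.897 and 0.975 with GW3965. In no library did the estimate for 1c exceed that for 1a. The annotated 1c transcript lacks the last 1100 exon bases. Reads of 1c mRNA from there could count toward 1a but not toward 1c, and how far this moved the ratio was not tested.

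The isoforms' shares of the gene's estimated counts moved in opposite directions. The 1c share was 18.7% (95% Wilson interval 16.7 to 20.8) with DMSO and 28.5% (27.4 to 29.6) with GW3965 in mouse 1, and 13.4% (11.7 to 15.2) and 33.7% (32.7 to 34.7) in mouse 2. Its mean was 16.0% ± 3.76 (SD, n = 2) with DMSO and 31.1% ± 3.68 (SD, n = 2) with GW3965, a difference of 15.1 percentage points (9.80 in mouse 1 and 20.3 in mouse 2). The 1a share was 70.5% (68.1 to 72.8) and 68.9% (66.5 to 71.2) with DMSO and 43.6% (42.4 to 44.8) and 47.5% (46.4 to 48.5) with GW3965. It fell by 24.1 percentage points on average (26.9 in mouse 1 and 21.4 in mouse 2). Neither share overlapped between the groups. The intervals cover counting error only, treat estimated counts as whole, and do not include the error of dividing reads among isoforms, and reads without molecular identifiers are not independent molecules.

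These differences depend on how Srebf1-203 is counted. It was listed at 0 counts with DMSO and 769.3 with GW3965 in mouse 1, and at 55.2 and 762.6 in mouse 2. Its share was 0 and 3.73% with DMSO and 11.8 and 8.39% with GW3965, so both GW3965 libraries were above both DMSO libraries. The ratio in mouse 2 was 13.7, and none is given for mouse 1. Counted with 1c, Srebf1-203 takes the 1c difference to 23.3 percentage points, and counted with 1a it takes the 1a difference to -15.9 percentage points. In shares of TPM, where short transcripts weigh more, the 1a share was 26.9% ± 1.57 (SD, n = 2) with DMSO and 17.8% ± 3.55 (SD, n = 2) with GW3965, and the 1c share 8.55% ± 2.35 (SD, n = 2) and 16.8% ± 4.31 (SD, n = 2).

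**Figure D3:**
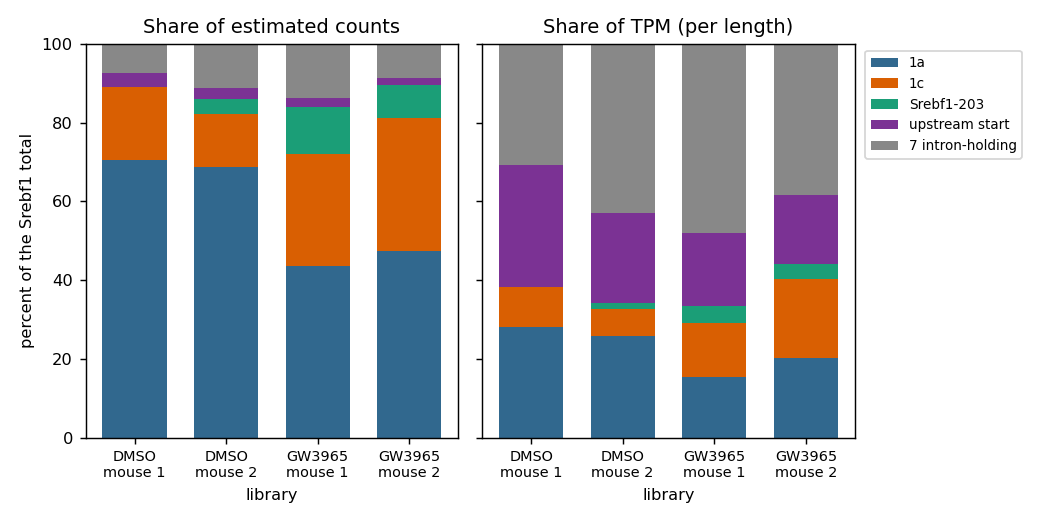
Stacked shares of the Srebf1 total (percent) by transcript class in each library, in estimated counts at left and in TPM at right. The 1a share of counts is 70.5 and 68.9% with DMSO and 43.6 and 47.5% with GW3965, and the short upstream and intron-holding transcripts take a larger part of TPM than of counts.

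In most genes the shares moved less. Among 7058 genes with several transcripts and a mean of at least 100 counts, the largest change of any transcript's share between the group means had a median of 3.96 percentage points and a 90th percentile of 14.6. The 24.1 points of Srebf1-201 were above 96.8% of these genes, as a description, since the gene was selected on this contrast. Between the 2 DMSO libraries the largest change within Srebf1 was 5.32 points, against a median of 4.87, and between the 2 GW3965 libraries 5.20 points, against a median of 6.49. In genes with a mean of at least 500 counts, 4241 in number, the median was 2.91 points and Srebf1 was above 99.0%.

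The upstream start took few of the gene's counts. Srebf1-204 held 50.6 and 41.2 counts with DMSO and 156.9 and 170.2 with GW3965, in mouse 1 and mouse 2. In CPM it stood at 2.60 and 2.18 with DMSO and at 9.56 and 8.93 with GW3965, ratios of 3.67 and 4.09 that lay near those of 1a. Per length it stood at 15.0 and 11.9 TPM with DMSO and at 46.5 and 51.5 TPM with GW3965, above 1a in both libraries of mouse 1 and below it in both of mouse 2. It is 367 bases long, and 57 of its 337 words are its own.

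The remaining 7 transcripts are non-coding, start inside the gene and hold 24 to 363 bases of what is intron in the protein-coding transcripts. Together they held 103.2 and 166.8 counts with DMSO and 896.2 and 782.9 with GW3965, or 5.30 and 8.85 CPM against 54.6 and 41.1 CPM. The groups did not overlap, and mouse 1 had the larger ratio, 10.3 against 4.64. Their share of the gene's counts was 7.26% with DMSO and 13.7% with GW3965 in mouse 1 but 11.3% and 8.61% in mouse 2, so it did not move one way. The library with the 13.7% share is the one with the highest share of counts in non-coding transcripts over all genes, whose part in this value was not tested.

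Among these 7, Srebf1-202 was the most abundant, at 2.87 and 4.27 CPM with DMSO and 21.2 and 22.2 CPM with GW3965. Srebf1-206 stood at 0.752 and 1.25 CPM with DMSO and at 12.5 and 6.25 CPM with GW3965. Srebf1-205, Srebf1-210, Srebf1-211 and Srebf1-212 stood at 0.153 to 1.08 CPM with DMSO and at 1.75 to 7.30 CPM with GW3965. Srebf1-209 was above 0 only in the GW3965 library of mouse 2, at 1.08 CPM. All but Srebf1-209 were higher with GW3965 in both mice. Across the gene the transcripts not higher in both mice were Srebf1-208 and Srebf1-209. The transcripts share most of their words and the gene was chosen on this contrast, so they are not separate observations.

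As parts of the whole difference in CPM, 1a made up 37.6% in mouse 1 and 43.3% in mouse 2, and 1c 30.7% and 37.7%. Srebf1-203 made up 14.4% and 9.30%, the intron-holding transcripts 15.2% and 8.09%, and the upstream start 2.14% and 1.69%. By CPM the 1a transcript was thus estimated as the largest single part in both mice, although its ratio was smaller than that of 1c. This order rests on the isoform split. Counted with 1c, Srebf1-203 would make 1c the larger part in both mice, and counted with 1a it would widen the lead of 1a. In TPM, where short transcripts weigh more, the order differed. The intron-holding transcripts then made up 52.2% and 37.5%, 1c 14.6% and 22.6%, 1a 12.3% and 19.2%, the upstream start 15.5% and 16.4%, and Srebf1-203 5.43% and 4.32%. No Srebf1 transcript carries a test here. Over all 32357 transcripts tested, edgeR's quasi-likelihood test called 0 higher and 0 lower with GW3965 (0% each), with 401 higher and 445 lower at an unadjusted p under 0.05, and DESeq2 called 97 and 107.

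**Figure D4:**
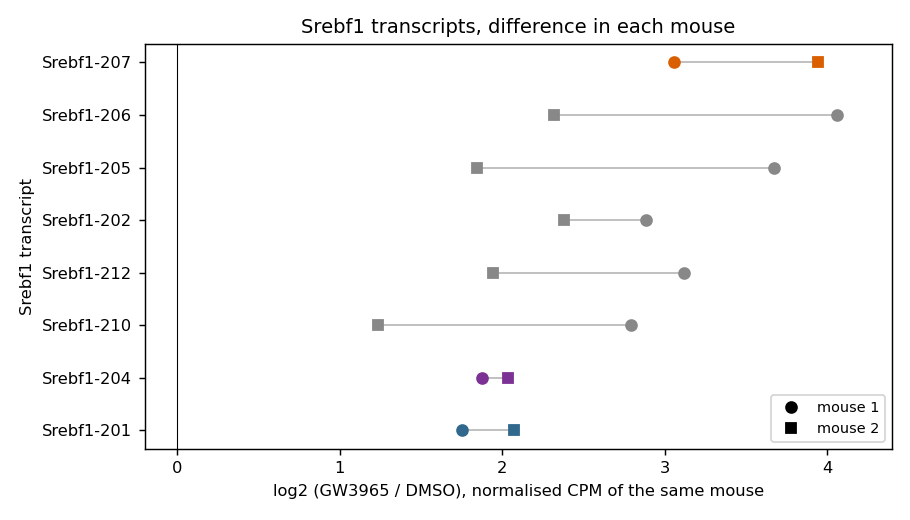
Log2 ratio of GW3965 to DMSO in normalised CPM for each mouse (circle, mouse 1; square, mouse 2) for the 8 Srebf1 transcripts with at least 3 counts in all 4 libraries, coloured by start as in the map of exons. Mouse 2 is the higher for 1a, 1c and the upstream start, at 2.07, 3.94 and 2.03, and mouse 1 is the higher for every intron-holding transcript shown.

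The other genes around Srebf1 were tested with edgeR's quasi-likelihood test over 13602 genes, called at a Benjamini-Hochberg adjusted p under 0.05. Of these genes 8 were higher (0.0588%) and 0 lower (0%) with GW3965, with 91 higher and 52 lower at an unadjusted p under 0.05, and DESeq2 called 16 and 3. With the mouse as a block, since each mouse gave both cultures, 31 were higher (0.228%) and 17 lower (0.125%). The p-values given with the block rest on a spread pooled over genes and use none of a gene's own. The lists were drawn up with earlier results of these data known, so their counts are descriptions of known pathways.

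The partners that retain, escort or cleave the SREBPs showed no call, with 0 of 11 tested genes called in either direction, with or without the block, by edgeR or DESeq2, and 1 higher at an unadjusted p under 0.05. Their median log2 fold change was -0.06, against 0.00 over all genes tested. Rnf145, a ubiquitin ligase that acts on SCAP, was the gene with the smallest p. It stood at 18.6 and 21.7 CPM with DMSO and at 31.7 and 35.4 CPM with GW3965, without overlap, but did not pass over all genes (log2 fold change 0.74 ± 0.19 SE, edgeR adjusted p = 0.9999, unadjusted p = 0.00338). Among the alternatives run, it passed when the GW3965 library of mouse 1 was left out and in no other. Insig1, which retains the SCAP-SREBP complex, stood at 180.3 and 274.8 CPM with DMSO and at 135.2 and 224.7 CPM with GW3965, and the groups overlapped. Srebf2 had a log2 fold change of -0.32 ± 0.25 (SE), and Mbtps1, the first protease that cuts the precursors, of -0.15 ± 0.18 (SE).

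The factors known to act on Srebf1 transcription also gave 0 calls among 18 tested, by edgeR with or without the block and by DESeq2, and 0 at an unadjusted p under 0.05. Rxrg, at 0 to 2 counts, was too low to test. Their median log2 fold change was -0.003. Nr1h2, the gene for LXRβ, stood at 52.8 and 52.2 CPM with DMSO and at 57.3 and 55.1 CPM with GW3965 (log2 fold change 0.10 ± 0.18 SE). Nr1h3, the gene for LXRα, was lower in level, at 16.9 and 15.2 CPM with DMSO and at 18.6 and 14.3 CPM with GW3965. Mlxipl, the gene for the glucose-sensing factor ChREBP, and Usf1, an E-box factor, went opposite ways in the mice, with log2 differences of 0.84 and -0.22 for Mlxipl and 0.57 and -0.25 for Usf1. Nfya, a subunit of the CCAAT-binding NF-Y, had a log2 fold change of -0.14 ± 0.18 (SE).

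Among genes of fatty acid and triglyceride synthesis that SREBP-1 is known to activate, Scd2, a stearoyl-CoA desaturase, rose. It stood at 52.8 and 73.8 CPM with DMSO and at 342.7 and 606.8 CPM with GW3965, with no overlap (log2 fold change 2.91 ± 0.33 SE, edgeR adjusted p = 0.0142). Its paralog Scd1 was far lower in level, at 0.668 and 1.54 CPM with DMSO and at 3.78 and 9.13 CPM with GW3965. Scd1 passed with the mouse as a block (adjusted p = 2.72e-07, edgeR) and not without it (log2 fold change 2.55 ± 0.52 SE, adjusted p = 0.338, edgeR), and it also passed by DESeq2. The list thus gave 1 call higher and 0 lower among 24 tested genes, and 2 higher with the block. The part of SREBP-1 in the values of Scd2 and Scd1 was not tested. Thrsp and Pnpla3, at 0 to 12 counts, were too low to test.

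Over all 24 tested genes of that list, Scd2 and Scd1 included, the median log2 fold change was 0.02, with 13 genes above 0 and 11 below and values from Aacs at -0.58 to Scd2 at 2.91. Acsl3, which activates fatty acids for lipid synthesis, stood at 128.7 and 113.9 CPM with DMSO and at 204.2 and 226.7 CPM with GW3965, without overlap, but did not pass (log2 fold change 0.83 ± 0.22 SE). Fasn, the fatty acid synthase, stood at 109.3 and 104.3 CPM with DMSO and at 104.8 and 127.8 CPM with GW3965. Acaca, which makes malonyl-CoA, stood at 15.9 and 15.5 CPM with DMSO and at 15.2 and 26.1 CPM with GW3965. For Fasn and Acaca the groups overlapped, with the mouse 1 pair nearly level and the GW3965 library of mouse 2 the highest of the 4. Fasn and Acaca were added to the named genes after their values were seen, as the genes best known as SREBP-1c targets. Over the list the median for mouse 1 was -0.19 and for mouse 2 it was 0.15 (log2 difference).

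Sterol synthesis and uptake genes, led mainly by SREBP-2, had log2 fold changes below 0 in 14 of 14 cases. Their median was -0.67, against 0.00 over all genes tested. Since they share a main regulator, they are not 14 separate observations. None was called in either direction (0 of 14, edgeR with or without the block, and DESeq2). At an unadjusted edgeR p under 0.05, 8 were lower, against 52 of all 13602 genes tested. Mvd, an enzyme of the mevalonate pathway, had the smallest p. It stood at 75.8 and 92.0 CPM with DMSO and at 39.4 and 51.9 CPM with GW3965, without overlap (log2 fold change -0.88 ± 0.21 SE, edgeR adjusted p = 0.958, and 0.0719 with the block). Mvk and Idi1, of the same pathway, and Lss, which acts after it in sterol synthesis, had log2 fold changes of -0.72, -0.78 and -0.73. Within mouse 1 the median over the list was -0.88, and within mouse 2 it was -0.47. The count rested on the libraries used, since 8 were called when the GW3965 library of mouse 2 was left out.

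Among the other listed LXR targets, 5 of 11 tested genes were called higher and 0 lower, 6 with the block or by DESeq2, and the median log2 fold change was 2.00. Pltp, at 3 to 9 counts, was too low to test. Abca1, the cholesterol exporter, stood at 0.462 and 1.75 CPM with DMSO and at 42.8 and 60.4 CPM with GW3965 (log2 fold change 5.55 ± 0.43 SE, edgeR adjusted p = 0.00134). Abcg1, a related exporter, rose from 1.39 and 1.27 CPM to 25.7 and 28.7 CPM, and Abcg5 and Abcg8, the partner subunits of the sterol exporter of the gut lumen, had log2 fold changes of 2.06 and 2.00. Ppara, a receptor that drives fatty acid oxidation, was also called (log2 fold change 2.12 ± 0.24 SE). Mylip, a ubiquitin ligase for the LDL receptor, passed with the block (adjusted p = 8.66e-07, edgeR, against 0.0766 without it) and by DESeq2.

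**Figure D5:**
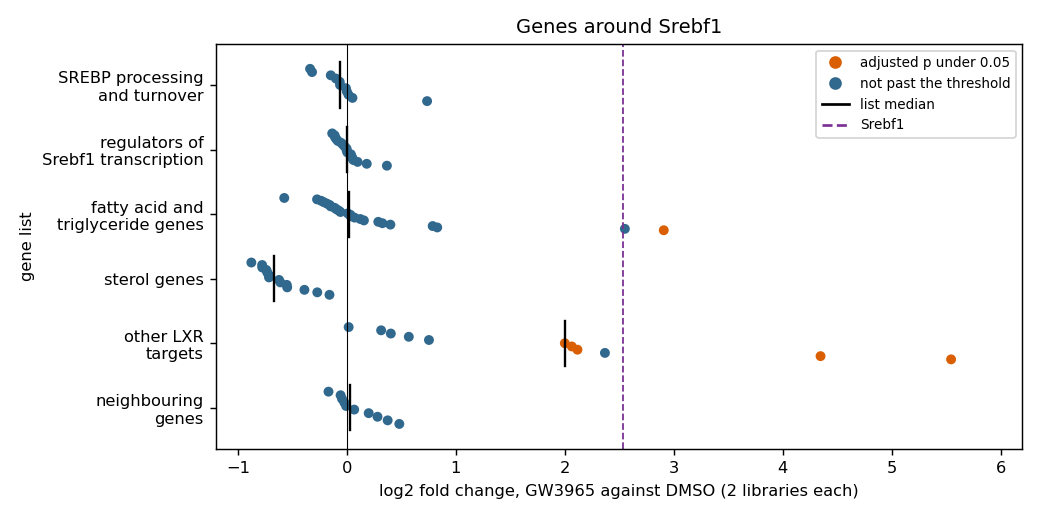
Log2 fold change (GW3965 against DMSO, 2 libraries each) of every tested gene in 6 lists, with 1 point per gene, orange where the edgeR adjusted p is under 0.05, a black bar at each list's median and a dashed line at the untested Srebf1 value of 2.53 (log2 of the ratio of mean CPM). The calls are 1 fatty acid gene (Scd2) and 5 other LXR targets, the sterol genes lie below 0, and the neighbouring genes lie around 0.

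Genes beside Srebf1 on chromosome 11 gave no call. Within 250 kb on either side the annotation lists 19 genes, of which 13 are in the files and 10 were tested, with 0 called in either direction by edgeR with or without the block or by DESeq2, and 0 at an unadjusted p under 0.05. Rai1, which overlaps the end of Srebf1, stood at 35.3 and 33.4 CPM with DMSO and at 44.2 and 34.7 CPM with GW3965 (log2 fold change 0.20 ± 0.20 SE). Tom1l2, the next gene upstream, stood at 49.3 and 51.0 CPM with DMSO and at 45.0 and 54.7 CPM with GW3965 (log2 fold change -0.01 ± 0.19 SE). Rasd1, Drc3 and Drg2, further out, had log2 fold changes of 0.48, 0.37 and -0.17, the first and second of them at 0.424 to 1.26 CPM. The median over the 10 genes was 0.03.

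The genes whose pattern over the 4 libraries was most like that of Srebf1 included Ppara and Abcg8. Likeness was the Euclidean distance between log2 CPM centred on each gene's mean, and the median over 13601 genes was 2.57. Ppara lay at 0.467 and Abcg8 at 0.561. Ppara stood at 4.31 and 4.08 CPM with DMSO and at 16.0 and 20.4 CPM with GW3965. Abcg8 stood at 32.3 and 29.2 CPM with DMSO and at 115.2 and 130.7 CPM with GW3965. The others of the 5 nearest were Gm10145 (0.429), Cphx2 and Gm2423 (both 0.488), which were listed at 0 in both DMSO libraries and stood at 0.577 to 0.787 CPM with GW3965. Cphx2 and Gm2423 had identical values in every library. Only 4 libraries enter this measure, so any gene with a similar difference between the treatments scores as near.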

How the data were processed

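RNA was measured in 4 organoid libraries, grouped by the treatment label. Per the submitters' processing notes, kallisto (version not given in the sources used here), CASAVA 1.7, FastQC and the build mm10 were used. Per the file headers, the authors deposited estimated counts and TPM per transcript, together with a table of rounded counts per transcript and a table of log2 CPM for 8524 genes. From these, 86119 of 88198 transcripts (97.64%) were matched to GENCODE genes on GRCm38, and the other 2079, with 0.685 to 0.854% of counts, were left out. Estimated counts were summed per gene and rounded. CPM was scaled by TMM (edgeR 4.0.16, R 4.3.3), low genes were removed by filterByExpr, and glmQLFTest compared GW3965 with DMSO over 13602 genes. DESeq2 1.42.0, other scalings, no filter, the authors' rounded counts, the mouse as a block and leaving out each library were the alternatives, and the same test was run per transcript.

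The pairing of the libraries comes from the mouse number in the labels, since each mouse gave both cultures. The correlation of their deviations from the group means was 0.072. The unblocked fit has 2 residual degrees of freedom and the blocked fit 1. Each group holds 1 culture from each of 2 mice, so the spread in the unblocked fit is that between these cultures. Its p-values also draw on a spread pooled over genes, with 7.78 prior degrees of freedom against the 2 residual ones. In the blocked fit edgeR estimated infinite prior degrees of freedom, so its p-values rest on a spread pooled over genes and use none of a gene's own. Counts were simulated for 13384 genes with 100 genes changed per size. The unblocked test recovered 50 at 2-fold and 97 at 4-fold with 22 false calls, and the blocked test 49 and 96 with 25. The simulation held no mouse effect and took its spreads from the unblocked fit, with changed genes drawn above a low expression limit. It therefore cannot show which fit suits these libraries better.

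The 1a start is that of the most upstream complete protein-coding transcript. The intended rule for 1c, the next complete one, finds none, because Srebf1-207 and Srebf1-203 are annotated as incomplete, so 1c was taken as the next RefSeq start used by a protein-coding transcript (6 bases from the GENCODE start). Promoter windows run 250 bases before to 50 after RefSeq starts. Genes were named if they passed in either fit, were among the 4 of a list with the smallest p, overlapped or neighboured Srebf1, or were among the 5 nearest in pattern, with Nr1h3, Fasn, Acaca and the genes too low to test added after their values were seen. The gene, the lists and the tests were chosen with earlier results of these data known.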

Additional observations from a re-analysis of the deposited data

How the results depend on the processing

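With 2 libraries a group, the counts of calls moved. The count of called genes was 8, and became 13 with library size alone, 14 without a filter, 19 with DESeq2, 48 with the replicate block and 38 to 84 when 1 library was left out, where the lone library is assumed to vary like the others. The paired fit also took the fatty acid list from 1 call to 2 and the other LXR targets from 5 to 6, and changed no other list's count. That list had 2 calls with DESeq2 and 1 to 3 when 1 library was left out, with Acsl3 added without the GW3965 library of mouse 1 and Aacs, as lower, without that of mouse 2. The SREBP processing list had 0 to 1 and the sterol list 0 to 8 calls when 1 library was left out. Transcripts gave 204 calls with DESeq2 and 0 otherwise.

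The log2 difference of Srebf1, 2.53, was 2.03 in the authors' deposited table, 2.53 with the replicate block and 2.40 to 2.66 when 1 library was left out. The 1c share difference of 15.1 points was 8.24 in TPM, 21.9 over 1a and 1c alone and 23.3 with Srebf1-203 counted as 1c, and that of 1a was -9.11 points in TPM and -15.9 with Srebf1-203 counted as 1a. The alternatives for Srebf1-203 and a fit without mitochondrial genes were chosen after seeing the data. Abcg5 missed the threshold without the DMSO library of mouse 2 (adjusted p = 0.071, edgeR). Uncalled genes changed sign. When 1 library was left out, Drc3 lay at -0.079 to 1.04, Mlxipl at -0.126 to 0.733, Usf1 at -0.125 to 0.437 and Tom1l2 at -0.156 to 0.126, with Tom1l2 at 0.001 without mitochondrial genes. The cause was not tested. Of 126 alternatives to the main values, 22 moved a count or a median over genes by over 1.5 times, or another value by over 1 SD between the mice. The gene total in counts does not depend on the isoform split. That split rests on reads of 50 bases, few words that are particular to 1a or 1c, and an incomplete annotated 1c transcript.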
